A study of Caenorhabditis elegans with 12 samples.

Results

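The comparison described here set 3 libraries of *atfs-1(null)* worms against the 3 libraries of wild-type N2 worms made beside them, which are the first of 2 experiments and 6 of the 12 libraries of the series. The libraries were chosen by their labels, not by their values. *atfs-1(null)* worms lack the whole *atfs-1* reading frame in an N2 background, and N2 is the standard laboratory strain of *C. elegans*. Worms of both groups were whole animals collected as L4 larvae after growth at 20 °C with no treatment. The labels give OP50 as the bacterial food, whereas the methods of the study name HT115 for worms harvested for RNA. The labels call the libraries repeats, and the study describes them as biologically independent experiments. In the other experiment, 3 libraries of *atfs-1(et18)* worms, whose allele alters the mitochondrial targeting sequence of ATFS-1, were set against 3 wild-type libraries of their own. The study asked which transcripts depend on ATFS-1 during development, with most attention to mitochondrial genes. The genes described here are those outside the mitochondrial lists.

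ATFS-1 is a bZIP transcription factor that carries both a mitochondrial targeting sequence and a nuclear localization sequence. It is imported into healthy mitochondria and degraded there, and it enters the nucleus when import fails, where it drives the mitochondrial unfolded protein response. The L4 stage is a time of rapid change in a hermaphrodite. The germline makes sperm first and then switches to oocytes, the intestine begins to produce yolk near adulthood, and the epidermis lays down the adult cuticle under the larval one and sheds the old cuticle at the last moult. Cuticle collagens are therefore transcribed in waves, and genes of sperm, oocytes, yolk and cuticle are among the transcripts that change most with age around this stage. The labels give the stage as L4 and no finer time. The study reports slower development of *atfs-1(null)* worms than of wild type. Whether the groups matched in age within L4 is not known, and its part in the differences below was not tested.

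Total counts ranged from 28832034 to 35444364 in wild type and from 30208415 to 32249139 in *atfs-1(null)*. Values are given as CPM, the reads of a gene scaled to a common library size with edgeR's TMM factors, and a gene was called where edgeR's quasi-likelihood test gave a Benjamini-Hochberg adjusted p under 0.05 over all genes tested. Replicate 3 of *atfs-1(null)* stood apart from the other libraries of its group. The chi-square per degree of freedom between replicates, which is near 1 for sampling noise alone, was 24.9 between *atfs-1(null)* replicates 1 and 2, 141 and 147 between either of them and replicate 3, and 23.5 to 31.2 among wild-type libraries. Each list count below was therefore also computed without replicate 3 of both groups, an alternative chosen after seeing the data. The targeted gene itself, *atfs-1* (WBGene00013878, WBcel235 chromosome V from 14193685 to 14197698), was at 47.3, 41.3 and 49.1 CPM in the wild-type libraries against 0.803, 0.632 and 0.561 CPM in those of the mutant, which matches the labels. Its log2 fold change was -6.10 (standard error 0.20, edgeR adjusted p = 5.9e-05).

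Of 15620 genes tested, 5134 (32.9%) were called higher in *atfs-1(null)* and 5530 (35.4%) lower, 68.3% in all. Every count of list members below has to be read against these shares. The 3 *atfs-1(null)* libraries lay above all 3 wild-type libraries for 34.5% of genes and below them for 39.7%. The median log2 fold change over all genes was -0.04. Scaling by library size alone moved that median to 0.21 and the calls to 6244 higher and 4190 lower, so the balance of rises and falls depends on the scaling.

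The calls were spread unevenly over the chromosomes. On chromosome X, 12% of 2210 tested genes were higher and 57.9% lower, with a median log2 fold change of -0.72. On the 5 autosomes together, 36.3% of 13395 genes were higher and 31.6% lower, with a median of 0.10. Among autosomes the share of genes that were lower ranged from 26.6% on chromosome I to 39% on chromosome V. X-linked genes are largely silent in the *C. elegans* germline, and few genes of the germline lists used here lie on X: 11 tested members against 224 on autosomes, and 5 of the 11 are vitellogenin genes, expressed in the intestine. Within the metabolic lists, 51 of 57 tested X-linked members were lower (median -1.11) and 371 of 557 autosomal members (median -0.64). Within the neuronal lists the medians were -0.64 on X and -0.59 on autosomes, and 57 of 118 X-linked and 192 of 390 autosomal members were lower. The difference between X and the autosomes was thus smaller in the neuronal lists than over all genes. It was not smaller in the cuticle lists, with medians of -1.03 on X and -0.05 on autosomes and 61.2% and 32.5% lower. In the immune lists the medians were -1.13 on X and -0.42 on autosomes, and 75% and 45.1% of members were lower. No test was made of these differences between chromosomes.

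**Figure D1:**
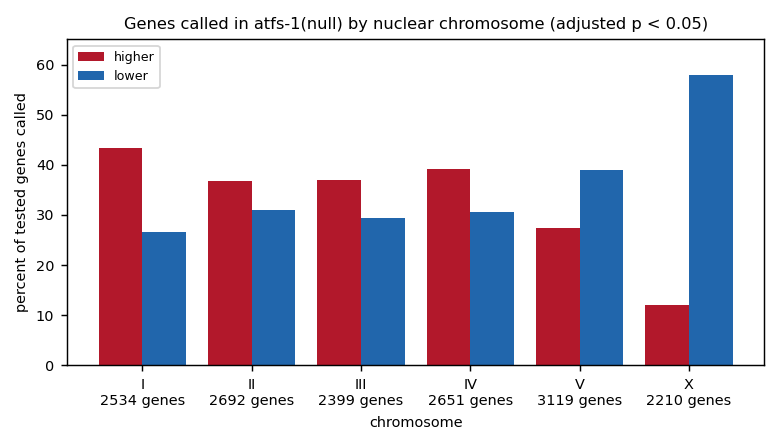
Percent of tested genes called higher (red) and lower (blue) in *atfs-1(null)* against wild type on each nuclear chromosome, 3 libraries a group, at an edgeR adjusted p under 0.05. X has the lowest share of higher genes (12%) and the highest share of lower genes (57.9%).

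Sperm genes were higher in *atfs-1(null)*. Of 28 major sperm protein genes tested, which encode the cytoskeletal protein of the crawling nematode sperm, 27 were higher, with a median log2 fold change of 3.1. *msp-142* had 6.501, 7.74 and 3.24 CPM in wild type and 59.9, 68.1 and 25.8 CPM in *atfs-1(null)* (log2 fold change 3.14, standard error 0.46, edgeR adjusted p = 0.00104). All 3 *atfs-1(null)* libraries were above all wild-type libraries, and within each group replicate 3 had the least. Replicate 3 was the lowest library of its group for all 28 genes, in wild type and in *atfs-1(null)*. The summed CPM of the family was 159, 166 and 68.8 in wild type and 1274, 1439.9 and 596 in *atfs-1(null)*. The msp genes are near-identical copies in clusters, so reads may be shared among them and the summed level is firmer than any single gene. Of the small sperm-specific families (*ssp*, *ssq*, *nspd*, *spch* and *sss* genes), 29 of 29 were higher, with a median of 2.87. *ssp-19* rose from 0.942, 0.823 and 0.344 CPM to 23.9, 26.4 and 12.8 CPM (log2 fold change 4.89, standard error 0.45, edgeR adjusted p = 0.000273).

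Genes named for defects in spermatogenesis moved less evenly. Of 32 tested, 23 were higher, 1 was lower and the median was 1.40. *gsp-4*, a sperm protein phosphatase, had 14.2, 16.04 and 7.51 CPM in wild type and 84.6, 89.5 and 34.01 CPM in *atfs-1(null)* (log2 fold change 2.46, standard error 0.43, edgeR adjusted p = 0.00221). *spe-44*, which encodes a transcription factor acting early in the sperm programme, had 11.9, 17.01 and 9.68 CPM in wild type and 25.96, 27.2 and 24.1 CPM in *atfs-1(null)* and a smaller difference (log2 fold change 1.000, standard error 0.22, edgeR adjusted p = 0.00574). The late-acting membrane protein genes *spe-9* and *spe-38*, needed by sperm at fertilization, had log2 fold changes of 0.99 and 0.90 and were not called. *spe-29* was lower (log2 fold change -0.69, standard error 0.26, edgeR adjusted p = 0.0459), although it lost the call when any one of wild-type replicates 1, 2 or 3 or *atfs-1(null)* replicates 1 or 2 was left out. Without replicate 3 of both groups, 30 of the 32 were higher.

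Oocyte genes were higher as well. All 22 genes of the oocyte and eggshell list were higher, with log2 fold changes from 1.99 to 4.79 and a median of 3.97, or 3.203 without replicate 3 of both groups. *oma-1*, a zinc-finger protein needed for oocyte maturation, had 21.9, 20.3 and 11.02 CPM in wild type and 138, 157 and 255 CPM in *atfs-1(null)* (log2 fold change 3.37, standard error 0.34, edgeR adjusted p = 0.000332). *rme-2*, the yolk receptor of the oocyte, had 50.2, 36.3 and 19.6 CPM in wild type and 398, 464 and 773 CPM in *atfs-1(null)* (log2 fold change 3.94, standard error 0.42, edgeR adjusted p = 0.000348). *cpg-2*, a chondroitin proteoglycan of the eggshell, had 86.5, 54.8 and 25.01 CPM in wild type and 936, 1101 and 1864 CPM in *atfs-1(null)* (log2 fold change 4.55, standard error 0.51, edgeR adjusted p = 0.000418). In these genes the order of the libraries was not that of the sperm genes, because *atfs-1(null)* replicate 3 was the highest library of its group for 22 of 22 members. Wild-type replicate 3 was the lowest of its group for 21 of 22. The summed CPM of the list was 833, 626 and 333 in wild type and 6572, 7594 and 13473 in *atfs-1(null)*, so the groups did not overlap. In bulk samples such as these, fewer cells of a type and less RNA per cell cannot be told apart, nor can more cells and more RNA per cell.

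Genes expressed through the whole germline were also higher, by smaller amounts. All 21 P granule and Argonaute genes were higher (median 1.67), as were all 26 meiotic chromosome genes (median 1.72) and all 26 DNA replication and mitosis genes (median 1.34). *pgl-1*, a P granule scaffold protein, had 134, 159.7 and 81.3 CPM in wild type and 362, 410.1 and 521 CPM in *atfs-1(null)* (log2 fold change 1.78, standard error 0.26, edgeR adjusted p = 0.00105). *spo-11*, the enzyme that makes meiotic double-strand breaks, had 6.71, 8.301 and 3.86 CPM in wild type and 27.7, 34.7 and 45.4 CPM in *atfs-1(null)* (log2 fold change 2.51, standard error 0.32, edgeR adjusted p = 0.000619). *syp-1*, a component of the synaptonemal complex, had 15.98, 19.2 and 9.71 CPM in wild type and 35.1, 39.96 and 49.9 CPM in *atfs-1(null)* (log2 fold change 1.48, standard error 0.27, edgeR adjusted p = 0.00244). In these lists *atfs-1(null)* replicate 3 was again the highest of its group, for 19 of 21, 26 of 26 and 25 of 26 members. The mitotic cyclins stood at the top of the replication and mitosis list, with log2 fold changes of 3.85 for *cyb-2.2*, 3.63 for *cyb-2.1* and 3.16 for *cyb-3*. The ribonucleotide reductase gene *rnr-1* stood at the bottom with 0.54. The counts of all 3 lists were the same without replicate 3 of both groups.

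Among 16 genes that act in the choice between sperm and oocyte, 11 were higher and 1 lower. *fog-3*, needed for germ cells to become sperm, was the one that fell, with 5.38, 5.98 and 4.31 CPM in wild type and 3.33, 3.02 and 2.25 CPM in *atfs-1(null)* (log2 fold change -0.86, standard error 0.24, edgeR adjusted p = 0.014). With scaling by library size alone *fog-3* was no longer called. *fog-1*, which acts beside it, was higher, with 6.96, 7.78 and 6.79 CPM in wild type and 13.7, 13.6 and 21.7 CPM in *atfs-1(null)* (log2 fold change 1.19, standard error 0.23, edgeR adjusted p = 0.00329). *fem-3*, whose mRNA is held back by FBF and NOS-3 proteins when the germline switches to oocytes, had 7.898, 7.37 and 5.65 CPM in wild type and 30.6, 35.8 and 52.8 CPM in *atfs-1(null)* (log2 fold change 2.51, standard error 0.25, edgeR adjusted p = 0.000316). *gld-1*, an RNA-binding protein of meiotic germ cells, had 149.7, 169.8 and 82.1 CPM in wild type and 536, 625 and 924 CPM in *atfs-1(null)* (log2 fold change 2.38, standard error 0.32, edgeR adjusted p = 0.000737). The sex determination genes *tra-1*, *tra-2*, *tra-3* and *fem-1* were not called, with log2 fold changes between -0.15 and 0.11. Male markers were near the limit of detection, with a summed CPM of 7.81, 11.97 and 7.75 in wild type and 6.33, 6.09 and 3.34 in *atfs-1(null)*, and 3 of 10 could be tested, with 1 higher and 1 lower, or 2 lower without wild-type replicate 2. *mab-3*, which blocks yolk synthesis in males, fell (log2 fold change -1.51, standard error 0.37, edgeR adjusted p = 0.00905).

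All 6 vitellogenin genes, which encode the yolk proteins made in the intestine, were higher, with log2 fold changes from 3.35 to 4.69 and a median of 3.85. The median was 4.52 without wild-type replicate 1, 3.097 without *atfs-1(null)* replicate 3 and 2.74 without replicate 3 of both groups, with all 6 called each time. *vit-2* had 596, 249 and 158 CPM in wild type and 3639, 3848 and 10591 CPM in *atfs-1(null)* (log2 fold change 4.17, standard error 0.66, edgeR adjusted p = 0.00142). *vit-6* had 1269.8, 588 and 418 CPM in wild type and 5419.6, 5451 and 14354 CPM in *atfs-1(null)* (log2 fold change 3.47, standard error 0.57, edgeR adjusted p = 0.00163). The spread within groups was wide in both genes: wild-type replicate 1 had several times the CPM of replicate 3, and *atfs-1(null)* replicate 3 had more than replicates 1 and 2 together. The groups still did not overlap. *vit-3*, *vit-4* and *vit-5* are close copies of one another, and reads may be shared among them. Markers that the embryo switches on after fertilization were almost absent, with a summed CPM over 12 genes of 0.395, 0.449 and 0.723 in wild type and 1.61, 1.61 and 2.75 in *atfs-1(null)*. Of these only *pes-1* passed the filter on low counts, and it was called higher. The number called was 2 without wild-type replicate 1, 3 without wild-type replicate 2 or 3 or *atfs-1(null)* replicate 2, and between 0 and 5 with other filters.

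Histone genes went the other way from the rest of the germline lists. Of 72 genes, 29 passed the filter, 18 were lower and 5 higher, with a median of -1.04. The number higher was 3 without wild-type replicate 1 or 2, and 2 without wild-type replicate 3 or *atfs-1(null)* replicate 2. The replication-dependent histone genes of the clusters, such as *his-3* (8.57, 7.14 and 7.96 CPM in wild type and 2.94, 2.44 and 3.04 CPM in *atfs-1(null)*, log2 fold change -1.49, standard error 0.19, edgeR adjusted p = 0.000637), made up most of those that fell. The mRNAs of such genes lack poly(A) tails in most animals, and the copies are near-identical, so their counts depend on library preparation and on how shared reads were assigned. *his-74*, a variant H3 gene, was higher with 22.9, 25.8 and 14.1 CPM in wild type and 65.3, 71.3 and 91.1 CPM in *atfs-1(null)* (log2 fold change 1.86, standard error 0.25, edgeR adjusted p = 0.000725), and *his-71*, another H3.3 gene, was lower with 77.6, 76.9 and 87.2 CPM in wild type and 40.02, 34.3 and 25.5 CPM in *atfs-1(null)* (log2 fold change -1.28, standard error 0.17, edgeR adjusted p = 0.000819). The replacement histone genes thus differed in direction from one another.

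**Figure D2:**
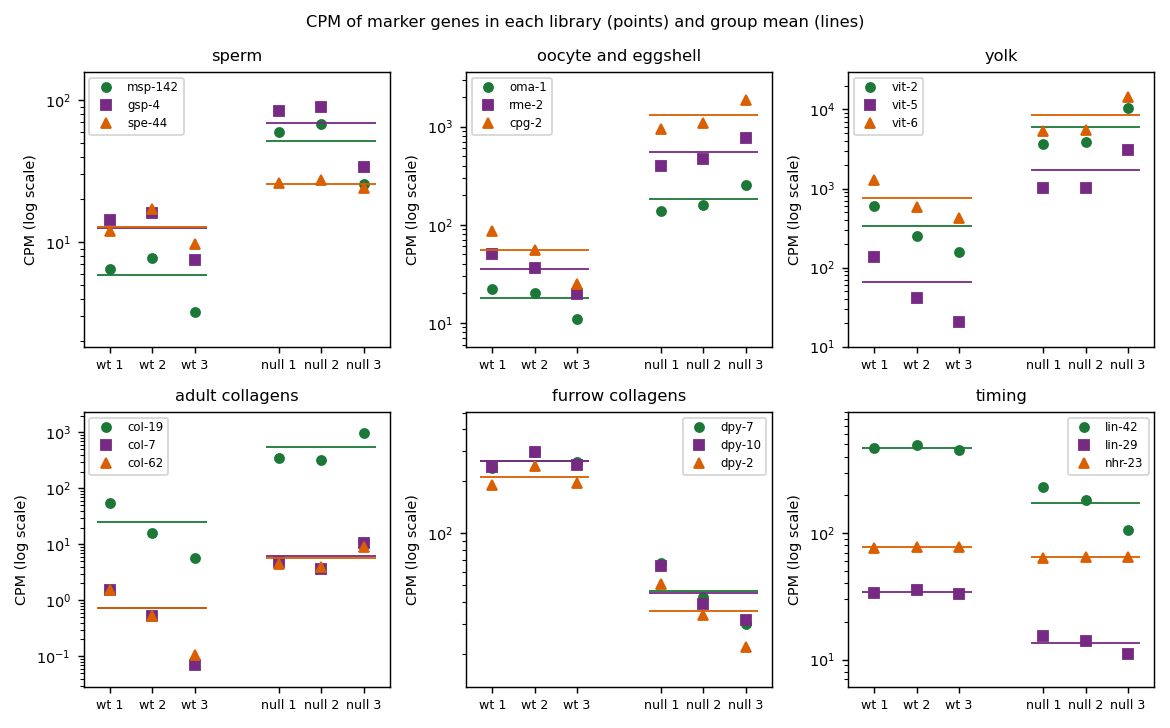
CPM (log scale) of 3 genes of each of 6 kinds in each of the 3 wild-type (wt) and 3 *atfs-1(null)* (null) libraries, as points, with lines at the group means. The sperm, oocyte, yolk and adult collagen (*col-19*, *col-7* and *col-62*) genes shown are higher in every null library, and the furrow collagens are lower. The adult cuticle collagens *bli-1* and *bli-2*, not shown, were called lower. Null 3 has the most oocyte and yolk RNA and the least sperm RNA of its group.

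Cuticle collagens moved in both directions. Of 122 *col* genes tested, 56 were higher and 27 lower, with a median of 0.70 and a range from -3.60 to 5.49. The summed CPM of the family was 14381, 14920.3 and 14796 in wild type and 23993, 25683 and 24896 in *atfs-1(null)*, so the total rose in every *atfs-1(null)* library. *col-19*, a collagen of the adult cuticle, had 54.8, 15.9 and 5.62 CPM in wild type and 354, 317 and 964 CPM in *atfs-1(null)* (log2 fold change 4.42, standard error 0.90, edgeR adjusted p = 0.00411). The adult collagens *col-7* and *col-62* were higher as well, with log2 fold changes of 3.11 and 2.96. At the other end, *col-176* had 165, 175 and 189.6 CPM in wild type and 18.6, 16.01 and 8.89 CPM in *atfs-1(null)* (log2 fold change -3.605, standard error 0.27, edgeR adjusted p = 0.000191). *col-149* had 473, 571 and 584 CPM in wild type and 63.3, 40.9 and 68.1 CPM in *atfs-1(null)* (log2 fold change -3.24, standard error 0.21, edgeR adjusted p = 0.000177). Within groups the high collagens were uneven: *col-119* had 44.2, 11.9 and 0.6201 CPM in wild type and 303, 255 and 974 CPM in *atfs-1(null)* (log2 fold change 4.75, standard error 1.28, edgeR adjusted p = 0.0133), and it lost the call without wild-type replicate 2. Without replicate 3 of both groups, 72 *col* genes were higher and 30 lower.

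Collagens named for their effect on body shape split by their known place in the cuticle. The 6 collagens of the furrows between the annuli, *dpy-2*, *dpy-3*, *dpy-7*, *dpy-8*, *dpy-9* and *dpy-10*, all fell, with log2 fold changes between -2.57 and -2.19. *dpy-7* had 238, 295 and 258 CPM in wild type and 67.1, 42.8 and 29.7 CPM in *atfs-1(null)* (log2 fold change -2.500, standard error 0.29, edgeR adjusted p = 0.000457). *dpy-10* had 242, 295 and 249.6 CPM in wild type and 64.7, 38.9 and 31.6 CPM in *atfs-1(null)* (log2 fold change -2.54, standard error 0.27, edgeR adjusted p = 0.000351). The collagens of the annuli *dpy-4*, *dpy-5* and *dpy-13* had log2 fold changes of 0.63, 0.54 and 0.61 and were not called. *dpy-17* was the one member that rose, by 1.01 on the log2 scale. No member was called higher by edgeR without wild-type replicate 1, 2 or 3 or *atfs-1(null)* replicate 1, and 4 were without *atfs-1(null)* replicate 3. *rol-6*, *sqt-1*, *sqt-2* and *sqt-3* were not called either, with values between -0.53 and -0.12. *bli-1* and *bli-2*, collagens of the struts of the adult cuticle, fell (*bli-1* with 476, 748 and 425 CPM in wild type and 344, 278 and 192 CPM in *atfs-1(null)*, log2 fold change -1.02, standard error 0.27, edgeR adjusted p = 0.0132), unlike the other adult cuticle markers. With scaling by library size alone *bli-1* was no longer called. In all 19 genes of the list *atfs-1(null)* replicate 3 had the lowest CPM of its group. Of the 19, 9 were lower and 1 higher, and without replicate 3 of both groups 9 were lower and 4 higher.

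**Figure D3:**
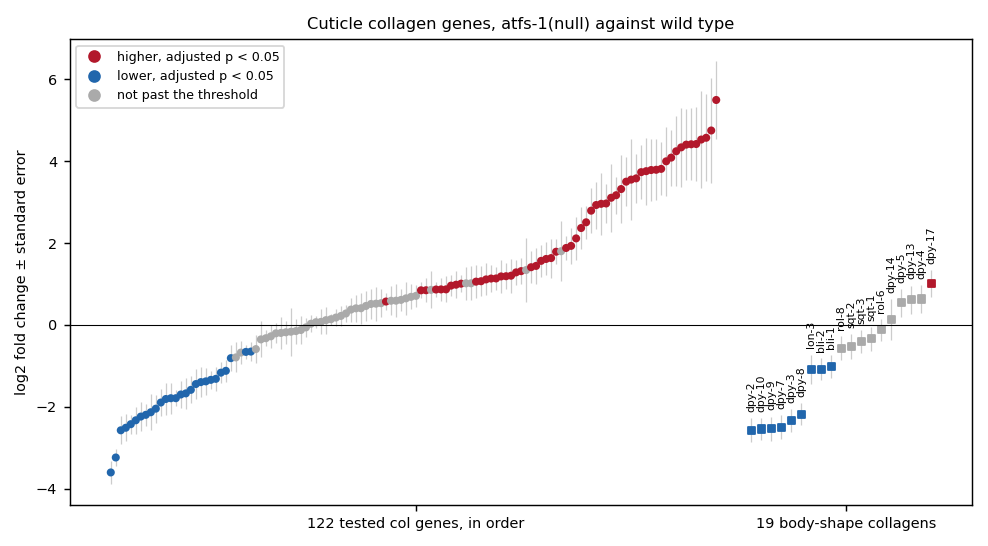
log2 fold change with its standard error for the 122 tested *col* genes in order (circles) and the 19 body-shape collagens (squares), *atfs-1(null)* against wild type, 3 libraries a group. Calls at an edgeR adjusted p under 0.05 are coloured: the 56 higher *col* genes reach 5.49, while the 6 furrow collagens lie between -2.57 and -2.19.

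In the lists of genes that make, join and remove cuticle, more genes were lower than higher. The share lower was 47.4% for collagen processing and moulting and 54.5% for cuticlins and zona pellucida genes. It was 38.2% for hedgehog-related and patched-related genes, near the 35.4% over all genes. Of 19 genes for collagen processing and moulting, 9 were lower, with a median of -0.59. DESeq2 called 3 higher, and edgeR 2 without *atfs-1(null)* replicate 3. *mlt-11*, a protease inhibitor needed for the moult, had 1219, 1323 and 1279.8 CPM in wild type and 303, 198 and 173 CPM in *atfs-1(null)* (log2 fold change -2.505, standard error 0.21, edgeR adjusted p = 0.000224). *pdi-2*, a subunit of the collagen prolyl hydroxylase, had 3688, 4077 and 3999.6 CPM in wild type and 1278, 1061 and 893 CPM in *atfs-1(null)* (log2 fold change -1.86, standard error 0.13, edgeR adjusted p = 0.000188). *mlt-10* was not called, with 178, 274 and 134 CPM in wild type and 199, 163 and 80.2 CPM in *atfs-1(null)*, and its libraries overlapped. Of 33 cuticlin and zona pellucida genes, 18 were lower and 5 higher, or 9 higher without *atfs-1(null)* replicate 3. *noah-1*, a protein of the apical extracellular matrix that helps attach epidermis to cuticle, had 963, 1162 and 996 CPM in wild type and 225, 139 and 120.2 CPM in *atfs-1(null)* (log2 fold change -2.69, standard error 0.24, edgeR adjusted p = 0.000263). *fbn-1*, a fibrillin-related matrix protein, had 420.1, 391 and 514 CPM in wild type and 52.1, 36.4 and 35.6 CPM in *atfs-1(null)* (log2 fold change -3.42, standard error 0.20, edgeR adjusted p = 0.000177). Among 68 hedgehog-related and patched-related genes, many of which cycle with the moult, 26 were lower and 13 higher, or 20 higher without *atfs-1(null)* replicate 3 (median -0.25, or 0.01 with scaling by library size alone). *wrt-10* fell from 329.9, 369 and 369 CPM to 63.95, 36.9 and 27.9 CPM, and *grd-6* rose from 16.98, 10.7 and 14.4 CPM to 50.1, 81.5 and 28.8 CPM.

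Genes that set the timing of larval stages were mostly lower: 16 of 19 fell and 2 rose, with a median of -1.23. *lin-42*, the homologue of Period whose transcript cycles with the moults, had 465, 498 and 454 CPM in wild type and 231, 183 and 105 CPM in *atfs-1(null)* (log2 fold change -1.45, standard error 0.26, edgeR adjusted p = 0.0025). *lin-29*, the transcription factor of the switch from larva to adult in the epidermis, had 33.5, 35.4 and 33 CPM in wild type and 15.5, 14 and 11.1 CPM in *atfs-1(null)* (log2 fold change -1.33, standard error 0.16, edgeR adjusted p = 0.000495), and 678 of its 2309 exon bases overlap *hmg-12*. *lin-14*, an early-stage factor that falls after the first larval stage, had 54.8, 45.8 and 50.7 CPM in wild type and 20.6, 21.4 and 22.4 CPM in *atfs-1(null)* (log2 fold change -1.23, standard error 0.12, edgeR adjusted p = 0.000293). The genes that rose were *lin-28*, an RNA-binding protein of early stages (23.8, 26.7 and 23.9 CPM in wild type and 38.3, 39.6 and 50.98 CPM in *atfs-1(null)*, log2 fold change 0.79, standard error 0.15, edgeR adjusted p = 0.00285), and *lin-41* (75.2, 57.2 and 64.4 CPM in wild type and 179, 204 and 396 CPM in *atfs-1(null)*, log2 fold change 1.99, standard error 0.31, edgeR adjusted p = 0.00131). *lin-41* is also an oocyte gene and belongs to the oocyte list. *nhr-23*, a receptor that drives the moulting cycle, differed little, with 75.7, 76.8 and 77.9 CPM in wild type and 63.2, 64.6 and 64.3 CPM in *atfs-1(null)* (log2 fold change -0.26, standard error 0.09, edgeR adjusted p = 0.03), and lost the call without any one of wild-type replicates 1, 2 or 3 or *atfs-1(null)* replicates 1 or 2, and with DESeq2 or scaling by library size alone. The sperm, oocyte, yolk and collagen differences given above ran through the same libraries, and their part in the differences of the lists that follow was not tested.

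Immune genes did not move as one group. Of 112 C-type lectin genes tested of 240, 53 were lower and 26 higher, with a median of -0.39. *clec-87* had 25, 14.9 and 6.86 CPM in wild type and 303, 339 and 648 CPM in *atfs-1(null)* (log2 fold change 4.78, standard error 0.55, edgeR adjusted p = 0.000444). *clec-88* had 9.72, 6.28 and 3.17 CPM in wild type and 98.03, 111 and 213 CPM in *atfs-1(null)* (log2 fold change 4.46, standard error 0.49, edgeR adjusted p = 0.000395). Both showed the order of libraries seen in the oocyte genes, with *atfs-1(null)* replicate 3 highest and wild-type replicate 3 lowest. Among all genes called higher, *atfs-1(null)* replicate 3 was highest of its group for 61% and wild-type replicate 3 lowest for 76.6%. *clec-70* had 23.3, 7.03 and 7.61 CPM in wild type and 2.38, 0.575 and 0.887 CPM in *atfs-1(null)* (log2 fold change -3.31, standard error 0.69, edgeR adjusted p = 0.00465), and *clec-60*, which responds to *Staphylococcus aureus*, had 10.02, 9.39 and 11.2 CPM in wild type and 4.88, 1.87 and 5.703 CPM in *atfs-1(null)* and lost its call without wild-type replicate 3.

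Among 13 lysozymes, 5 were lower and 1 higher, or 3 higher without *atfs-1(null)* replicate 3. The share lower was 38.5%, near the 35.4% over all genes. *lys-7*, an intestinal lysozyme, was the one that rose, with 9.78, 17.6 and 6.89 CPM in wild type and 43.2, 67.4 and 51.8 CPM in *atfs-1(null)* (log2 fold change 2.25, standard error 0.35, edgeR adjusted p = 0.00143). *lys-4* had 927, 801 and 1052 CPM in wild type and 234, 186 and 198 CPM in *atfs-1(null)* (log2 fold change -2.17, standard error 0.14, edgeR adjusted p = 0.000177) and *lys-5* had 21.7, 15.1 and 22.7 CPM in wild type and 3.63, 1.897 and 2.54 CPM in *atfs-1(null)* (log2 fold change -2.89, standard error 0.30, edgeR adjusted p = 0.00034). *lys-1* was not called (377, 356 and 335 CPM in wild type and 341, 357 and 287 CPM in *atfs-1(null)*). Of 22 saposin-like genes, small lipid-binding proteins that include pore-forming antimicrobial ones, 14 were lower and 1 higher, with a median of -1.11. The one called higher lost the call without any one of wild-type replicates 1, 2 or 3 or *atfs-1(null)* replicates 1 or 2, and 3 were higher without *atfs-1(null)* replicate 3. *spp-23* fell from 37.3, 39.8 and 48.5 CPM to 15.8, 14.8 and 13.7 CPM.

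Antimicrobial peptide genes of the epidermis were split, with 13 of 36 lower and 5 higher, and the number lower ranged from 8 to 19 when single libraries were left out, with 8 without *atfs-1(null)* replicate 2. The number higher was 8 without *atfs-1(null)* replicate 3. The share lower in the main fit, 36.1%, was near the 35.4% over all genes. *nlp-29*, induced by fungal infection and wounding, had 18.8, 14.96 and 18.6 CPM in wild type and 13.4, 12.3 and 9.28 CPM in *atfs-1(null)* (log2 fold change -0.58, standard error 0.19, edgeR adjusted p = 0.0317), and lost the call without wild-type replicate 1 or 3 or *atfs-1(null)* replicate 2 and with scaling by library size alone. *nlp-24* had 146, 159 and 220.3 CPM in wild type and 45.04, 40.9 and 49.2 CPM in *atfs-1(null)* (log2 fold change -1.96, standard error 0.18, edgeR adjusted p = 0.000262). Of 43 genes named for responses to infection or to *daf-16*, 18 were higher and 16 lower. These shares were 41.9% and 37.2%, against 32.9% and 35.4% over all genes. *irg-1*, induced by *Pseudomonas aeruginosa*, had 4.59, 3.22 and 5.75 CPM in wild type and 13.5, 12.7 and 18.03 CPM in *atfs-1(null)* (log2 fold change 1.702, standard error 0.27, edgeR adjusted p = 0.00137). *irg-7* had 4226, 4106 and 4413 CPM in wild type and 1199, 1058 and 1513 CPM in *atfs-1(null)* (log2 fold change -1.76, standard error 0.13, edgeR adjusted p = 0.000191) and *irg-8* had 1394, 1289 and 1586 CPM in wild type and 353, 316 and 412 CPM in *atfs-1(null)* (log2 fold change -1.98, standard error 0.13, edgeR adjusted p = 0.000177). Genes of one class name thus went in both directions. *dod-3* had 3.43, 1.61 and 1.17 CPM in wild type and 39.7, 30.6 and 17.2 CPM in *atfs-1(null)* (log2 fold change 3.803, standard error 0.49, edgeR adjusted p = 0.000643).

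The signalling genes of innate immunity were lower by moderate amounts: 15 of 18 genes of the p38, DBL-1 and related pathways fell, 1 rose and the median was -0.80. *pmk-1*, the p38 kinase, had 48.3, 46.1 and 49.9 CPM in wild type and 24.1, 23.3 and 23.02 CPM in *atfs-1(null)* (log2 fold change -1.03, standard error 0.10, edgeR adjusted p = 0.000323). *sma-6*, the type I receptor of the DBL-1 pathway, had 67.2, 59.6 and 72.03 CPM in wild type and 20.8, 16.6 and 16.4 CPM in *atfs-1(null)* (log2 fold change -1.88, standard error 0.15, edgeR adjusted p = 0.000197). *atf-7*, the transcription factor under PMK-1, was the one that rose (log2 fold change 0.43, standard error 0.10, edgeR adjusted p = 0.00804). *zip-2*, the bZIP factor of another pathogen response, was not called, with 338, 285 and 338 CPM in wild type and 345, 335 and 260.0 CPM in *atfs-1(null)*.

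In every metabolic list more genes were lower than higher. Of 63 genes of fatty acid activation and beta-oxidation, 40 were lower and 11 higher (median -0.84). *acox-1.2*, a peroxisomal acyl-CoA oxidase, had 403, 469 and 441 CPM in wild type and 56.3, 55.6 and 56.7 CPM in *atfs-1(null)* (log2 fold change -2.96, standard error 0.10, edgeR adjusted p = 5.88e-05). *cpt-5*, a carnitine palmitoyltransferase, had 185, 168 and 196 CPM in wild type and 45.3, 28.8 and 29.4 CPM in *atfs-1(null)* (log2 fold change -2.41, standard error 0.20, edgeR adjusted p = 0.000212). In contrast *acs-15* had 3.16, 3.78 and 1.45 CPM in wild type and 16.7, 19.5 and 6.29 CPM in *atfs-1(null)* (log2 fold change 2.34, standard error 0.51, edgeR adjusted p = 0.00548) and *acdh-5* had 4.68, 5.98 and 1.79 CPM in wild type and 24.4, 26.9 and 9.25 CPM in *atfs-1(null)* (log2 fold change 2.28, standard error 0.54, edgeR adjusted p = 0.00774). In these 2 genes the order of the libraries was that of the sperm genes, with replicate 3 lowest in both groups. Among all genes called higher, *atfs-1(null)* replicate 3 was lowest of its group for 35.7% and wild-type replicate 3 for 76.6%.

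Of 16 fatty acid desaturases and elongases, 12 were lower and 1 higher. *fat-7*, a delta-9 desaturase, had 234, 274 and 337 CPM in wild type and 25.3, 31.3 and 72.8 CPM in *atfs-1(null)* (log2 fold change -2.71, standard error 0.41, edgeR adjusted p = 0.00117), and its close copy *fat-6* had 617, 625 and 652 CPM in wild type and 305, 282 and 303 CPM in *atfs-1(null)* (log2 fold change -1.09, standard error 0.08, edgeR adjusted p = 0.000189). *fat-5*, the desaturase that acts on palmitic acid, was not called (23.1, 23.7 and 24.2 CPM in wild type and 25.3, 25.5 and 18.1 CPM in *atfs-1(null)*). *elo-2*, a palmitate elongase, had 644, 492 and 559 CPM in wild type and 137, 105 and 183 CPM in *atfs-1(null)* (log2 fold change -1.996, standard error 0.21, edgeR adjusted p = 0.000354). The one that rose (2 did without *atfs-1(null)* replicate 3), *elo-8*, had 3.68, 3.85 and 1.79 CPM in wild type and 19.9, 18.5 and 5.91 CPM in *atfs-1(null)*, again with replicate 3 lowest in both groups. Among lipases and lipid-binding proteins, 11 of 18 were lower and 4 higher. *lbp-6*, an intracellular fatty acid binding protein, had 772, 734 and 905 CPM in wild type and 223, 196 and 239 CPM in *atfs-1(null)* (log2 fold change -1.87, standard error 0.12, edgeR adjusted p = 0.000177), while *atgl-1*, the adipose triglyceride lipase homologue, had 48, 37.02 and 35.7 CPM in wild type and 116, 102.8 and 123 CPM in *atfs-1(null)* (log2 fold change 1.502, standard error 0.15, edgeR adjusted p = 0.000303).

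Of 18 genes for the synthesis of methyl donors and phosphatidylcholine, 13 were lower and 1 higher, with a median of -1.22. *sams-1*, an S-adenosylmethionine synthetase on chromosome X, had 2035, 1976 and 2324 CPM in wild type and 462, 326 and 418 CPM in *atfs-1(null)* (log2 fold change -2.39, standard error 0.15, edgeR adjusted p = 0.000177). *pmt-2*, which methylates phosphoethanolamine on the way to phosphatidylcholine, had 1759.7, 1703 and 1980.2 CPM in wild type and 572, 474 and 601 CPM in *atfs-1(null)* (log2 fold change -1.72, standard error 0.11, edgeR adjusted p = 0.000178). *cth-1*, a cystathionine gamma-lyase, had 459, 425 and 466 CPM in wild type and 129, 151 and 114 CPM in *atfs-1(null)* (log2 fold change -1.78, standard error 0.12, edgeR adjusted p = 0.00018). The other synthetase genes *sams-3* and *sams-4*, with log2 fold changes of -0.18 and 0.15, were not called, and *sams-5* rose by 1.26 on the log2 scale. No gene of the list was called higher by edgeR without wild-type replicate 1, wild-type replicate 3 or *atfs-1(null)* replicate 2, and 2 were without *atfs-1(null)* replicate 3. Of 11 genes of propionate breakdown, 9 were lower. *acdh-1*, the first enzyme of the propionate shunt, had 4023, 3669 and 4132 CPM in wild type and 1981, 1806 and 1649.9 CPM in *atfs-1(null)* (log2 fold change -1.12, standard error 0.09, edgeR adjusted p = 0.000208), while *acdh-2* was not called.

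In glycolysis 14 of 19 genes were lower and 4 higher. The 4 glyceraldehyde-3-phosphate dehydrogenase genes went in both directions. *gpd-2* had 523, 467 and 505 CPM in wild type and 178, 137 and 139 CPM in *atfs-1(null)* (log2 fold change -1.72, standard error 0.13, edgeR adjusted p = 0.000191), and *gpd-3* fell by 1.22 on the log2 scale. *gpd-1* had 8.75, 7.89 and 5.41 CPM in wild type and 51.2, 55.5 and 101 CPM in *atfs-1(null)* (log2 fold change 3.23, standard error 0.32, edgeR adjusted p = 0.000323) and *gpd-4* had 6.32, 6.69 and 4.17 CPM in wild type and 31.7, 34.96 and 58.4 CPM in *atfs-1(null)* (log2 fold change 2.86, standard error 0.30, edgeR adjusted p = 0.000353). *gpd-1* and *gpd-4* are near-identical to each other, as are *gpd-2* and *gpd-3*, so the pairs are firmer than their members. *gpd-1* and *gpd-4* are known as the forms of the embryo. *atfs-1(null)* replicate 3 was their highest library, as it was within its group for 61% of all genes called higher. *ldh-1*, lactate dehydrogenase, had 133, 125 and 145 CPM in wild type and 57.9, 47.2 and 53.2 CPM in *atfs-1(null)* (log2 fold change -1.35, standard error 0.12, edgeR adjusted p = 0.000241). The hexokinase genes differed as well: *hxk-1* rose by 2.33 on the log2 scale, *hxk-2* fell by 0.45 and *hxk-3* was not called.

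Of 14 genes of gluconeogenesis, the glyoxylate cycle and trehalose, 7 were lower and 3 higher. The phosphoenolpyruvate carboxykinase genes also split. *pck-2* had 1163, 1051 and 1129 CPM in wild type and 639, 454 and 538 CPM in *atfs-1(null)* (log2 fold change -1.04, standard error 0.13, edgeR adjusted p = 0.000609), *pck-1* had 174, 214 and 196 CPM in wild type and 131, 111 and 74.2 CPM in *atfs-1(null)* (log2 fold change -0.88, standard error 0.21, edgeR adjusted p = 0.00743), and *pck-3* rose with 8.57, 10.02 and 4.203 CPM in wild type and 41.4, 44.9 and 14.4 CPM in *atfs-1(null)* (log2 fold change 2.14, standard error 0.49, edgeR adjusted p = 0.00677). For *pck-2*, 497 of 2644 exon bases overlap *suro-1*. *icl-1*, the bifunctional glyoxylate cycle enzyme, had 291, 379.6 and 340.2 CPM in wild type and 717, 537 and 374 CPM in *atfs-1(null)* (log2 fold change 0.69, standard error 0.23, edgeR adjusted p = 0.0312), and lost the call without wild-type replicate 1 or 3 or *atfs-1(null)* replicate 1.

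In the families for the handling of foreign compounds more genes were lower than higher. Of 64 cytochromes P450, 36 were lower and 8 higher. Of 65 UDP-glucuronosyltransferases, 32 were lower and 13 higher, and of 44 glutathione S-transferases 24 were lower and 3 higher. Scaling by library size alone gave 25 lower of the 65, and 18 lower and 7 higher of the 44. *cyp-33C8* had 40.7, 15.1 and 30.1 CPM in wild type and 3.63, 2.07 and 2.33 CPM in *atfs-1(null)* (log2 fold change -3.42, standard error 0.42, edgeR adjusted p = 0.000543). *ugt-62* had 392, 196 and 248 CPM in wild type and 51.5, 50.5 and 40.1 CPM in *atfs-1(null)* (log2 fold change -2.56, standard error 0.27, edgeR adjusted p = 0.000343). Wild-type replicate 1 had the most of both, yet every *atfs-1(null)* library was below every wild-type one. *cyp-31A2*, which with its close copy *cyp-31A3* is needed for the eggshell, was higher, with 6.77, 5.57 and 3.44 CPM in wild type and 43.6, 47.5 and 78.2 CPM in *atfs-1(null)* (log2 fold change 3.42, standard error 0.33, edgeR adjusted p = 0.0003). *gst-24* had 11.7, 11.6 and 12.8 CPM in wild type and 38.8, 42.03 and 62.6 CPM in *atfs-1(null)* (log2 fold change 1.99, standard error 0.21, edgeR adjusted p = 0.00034).

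Nuclear hormone receptors, a family of ligand-regulated transcription factors that is greatly expanded in *C. elegans*, were the largest list of one direction. Of 188 tested of 269, 138 were lower and 4 higher, with a median of -0.87. Wild-type replicate 3 was the highest wild-type library for 116 of the 188. That was near the share over all 5530 genes called lower, 64.7%. *nhr-91* had 36.9, 35.4 and 39.4 CPM in wild type and 7.195, 4.83 and 5.53 CPM in *atfs-1(null)* (log2 fold change -2.67, standard error 0.18, edgeR adjusted p = 0.00018). *nhr-123* had 7.503, 5.65 and 8.16 CPM in wild type and 1.16, 0.834 and 1.300 CPM in *atfs-1(null)* (log2 fold change -2.69, standard error 0.26, edgeR adjusted p = 0.0003). The 4 called higher were *nhr-2*, *nhr-6*, *nhr-66* and *nhr-105*, with log2 fold changes from 0.46 to 3.47. *nhr-66* lost the call without any one wild-type replicate (1, 2 or 3) or *atfs-1(null)* replicate 2 or 3, and *nhr-105* without any one wild-type replicate or *atfs-1(null)* replicate 1 or 2. The number higher was 2 without wild-type replicate 1, 1 without wild-type replicate 2, wild-type replicate 3 or *atfs-1(null)* replicate 2, and 11 with scaling by library size alone. *nhr-2*, whose RNA is supplied to the embryo, had the highest of these values. With DESeq2 120 were lower and 8 higher.

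Most genes of the intestinal protease and intestine marker lists were lower, whereas the yolk genes and the intestinal lysozyme gene *lys-7* were higher. The intestine markers include the protease genes *asp-1* and *cpr-1*. Of 18 intestinal protease genes, 15 were lower (median -1.28) and 1 higher, which lost the call without wild-type replicate 1, wild-type replicate 3 or *atfs-1(null)* replicate 1, and of 12 intestine markers 10 were lower (median -1.15). *asp-1*, an aspartyl protease of the gut, had 7851, 7369.6 and 8799.5 CPM in wild type and 3465, 2884 and 3076 CPM in *atfs-1(null)* (log2 fold change -1.35, standard error 0.10, edgeR adjusted p = 0.000188). *act-5*, the actin of the microvilli, had 3647, 3275 and 4233 CPM in wild type and 1059, 867 and 930.2 CPM in *atfs-1(null)* (log2 fold change -1.97, standard error 0.12, edgeR adjusted p = 0.000177). *elt-2*, the GATA factor that governs intestinal genes, yolk genes among them, had 70.8, 64.4 and 76.6 CPM in wild type and 26.2, 19.9 and 23.7 CPM in *atfs-1(null)* (log2 fold change -1.601, standard error 0.14, edgeR adjusted p = 0.000254). Vitellogenin RNA rose in the same libraries in which these markers fell. Among cytosolic ribosomal protein genes 73 of 79 were lower and 3 higher, by small amounts (median -0.41). That count depended on the scaling: DESeq2 called 43 lower and scaling by library size alone 22. *rpl-11.1*, the copy expressed in the germline, had 345, 428 and 247 CPM in wild type and 807, 860.3 and 925 CPM in *atfs-1(null)* (log2 fold change 1.35, standard error 0.19, edgeR adjusted p = 0.000957), and its somatic partner *rpl-11.2* had 1739, 1665 and 2039 CPM in wild type and 1076, 977 and 856 CPM in *atfs-1(null)* (log2 fold change -0.904, standard error 0.12, edgeR adjusted p = 0.000665).

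**Figure D4:**
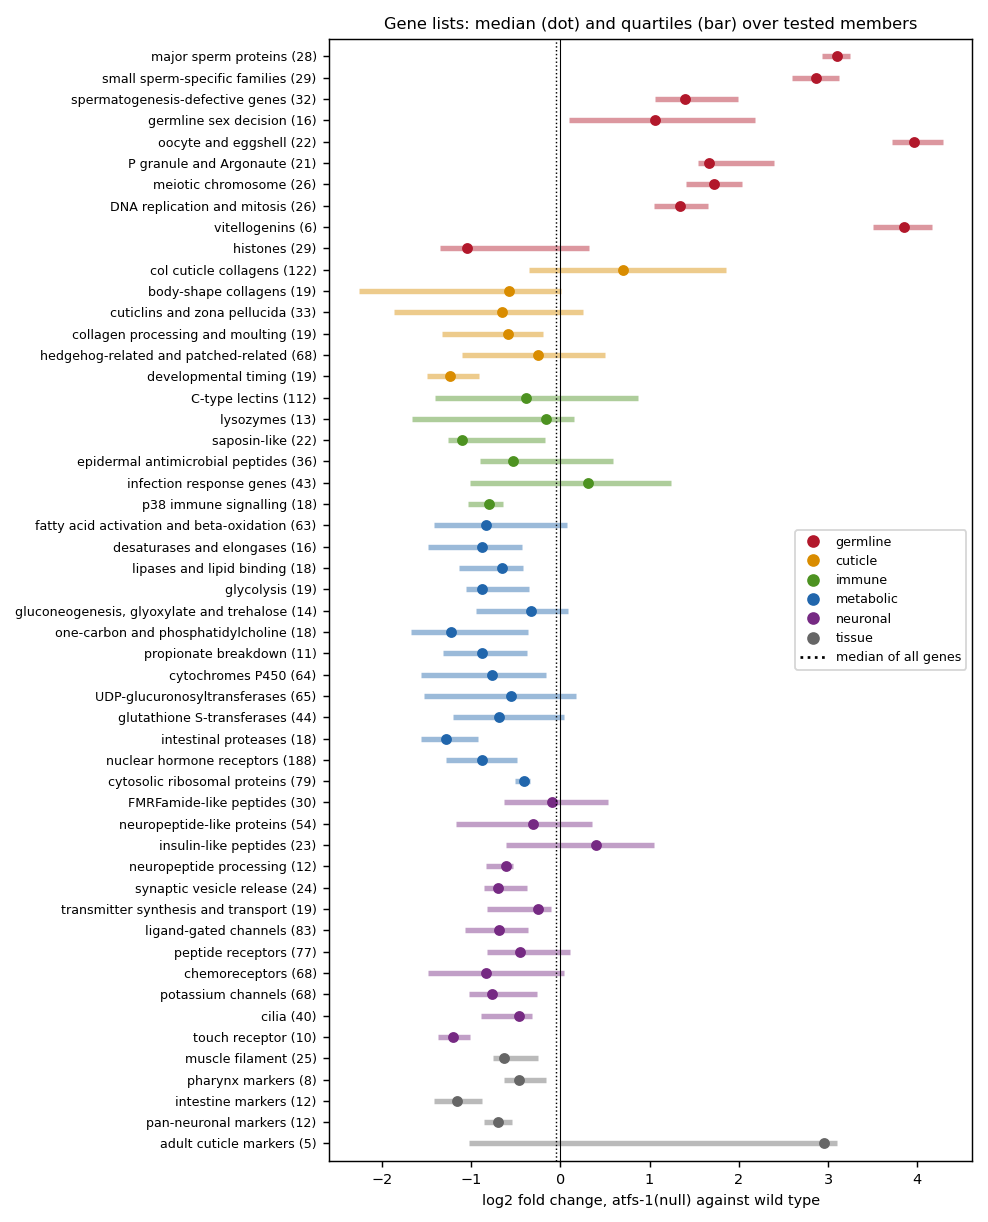
Median (dot) and quartiles (bar) of the log2 fold change in *atfs-1(null)* against wild type over the tested members of each list with at least 5, with the number tested in brackets. The dotted line is the median of all genes (-0.04). Sperm, oocyte and yolk lists lie to the right of it, and most metabolic, neuronal and tissue lists to the left.

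Genes that every neuron uses were somewhat lower. Of 12 pan-neuronal markers 10 were lower, with a median of -0.70, although 6 were called with scaling by library size alone. Of 24 genes of synaptic vesicle release, 19 were lower and 2 higher (median -0.70), or 1 higher without any one of wild-type replicates 1, 2 or 3. The pan-neuronal markers include synaptic genes such as *snb-1* and *rab-3*, so these counts are not independent. *unc-18*, a partner of syntaxin, had 116, 108 and 117 CPM in wild type and 57.9, 53.9 and 50.3 CPM in *atfs-1(null)* (log2 fold change -1.07, standard error 0.10, edgeR adjusted p = 0.00028). *rab-3*, a GTPase of synaptic vesicles, had 20.3, 19.5 and 22.1 CPM in wild type and 12.99, 11.4 and 9.04 CPM in *atfs-1(null)* (log2 fold change -0.89, standard error 0.18, edgeR adjusted p = 0.00378). *unc-57*, endophilin, was one of the genes that rose (62.2, 60.6 and 59.3 CPM in wild type and 86.1, 92.4 and 118 CPM in *atfs-1(null)*, log2 fold change 0.704, standard error 0.14, edgeR adjusted p = 0.00333). *snb-1*, synaptobrevin, was not called (135, 129 and 138 CPM in wild type and 121, 119.4 and 127 CPM in *atfs-1(null)*).

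The peptides themselves moved in both directions, while the enzymes that process them were lower. Of 12 processing and release genes 10 fell. *egl-3*, the proprotein convertase, had 150.1, 141 and 164 CPM in wild type and 110.2, 98.4 and 90.8 CPM in *atfs-1(null)* (log2 fold change -0.602, standard error 0.11, edgeR adjusted p = 0.00275), and *egl-21*, the carboxypeptidase that acts after it, had 155, 143 and 175 CPM in wild type and 95.3, 82.8 and 79.8 CPM in *atfs-1(null)* (log2 fold change -0.87, standard error 0.12, edgeR adjusted p = 0.000794). Of 30 FMRFamide-like peptide genes, 9 were lower and 5 higher (median -0.09, or 0.16 with scaling by library size alone and 0.0459 with DESeq2). The share lower was 30%, against 35.4% over all genes. The number higher changed when single libraries were left out. It was 1 without wild-type replicate 1, 2 without wild-type replicate 3 or *atfs-1(null)* replicate 1, 3 without *atfs-1(null)* replicate 2 and 12 without *atfs-1(null)* replicate 3, which is more than the 9 then lower. *flp-15* had 17.4, 14.7 and 22.3 CPM in wild type and 7.17, 5.66 and 9.25 CPM in *atfs-1(null)* (log2 fold change -1.303, standard error 0.25, edgeR adjusted p = 0.00303) and *flp-17* had 4.34, 4.82 and 2.72 CPM in wild type and 9.54, 8.596 and 6.41 CPM in *atfs-1(null)* (log2 fold change 1.05, standard error 0.28, edgeR adjusted p = 0.0121). *flp-18* had 12.9, 11.03 and 10.9 CPM in wild type and 20.9, 19.98 and 12.2 CPM in *atfs-1(null)* and lost its call without any one of wild-type replicates 1, 2 or 3 or *atfs-1(null)* replicates 1 or 2. Of 54 neuropeptide-like protein genes 24 were lower and 6 higher, or 12 higher without *atfs-1(null)* replicate 3. *nlp-12*, expressed in the stretch-sensing DVA neuron, had 40.3, 31.6 and 44.5 CPM in wild type and 11.2, 8.02 and 14.3 CPM in *atfs-1(null)* (log2 fold change -1.797, standard error 0.24, edgeR adjusted p = 0.000762), and *nlp-4* had 2.31, 2.92 and 1.52 CPM in wild type and 10.4, 10.95 and 4.403 CPM in *atfs-1(null)* (log2 fold change 1.94, standard error 0.41, edgeR adjusted p = 0.00492).

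In the main fit, insulin-like peptide genes had the only neuronal list with a median above zero, at 0.41. With scaling by library size alone, the FMRFamide-like peptide and transmitter lists had medians above zero as well. Of 23 insulin-like genes tested, 7 were higher (30.4%, against 32.9% over all genes) and 5 lower (21.7%, against 35.4%). The number lower was 3 without wild-type replicate 1, wild-type replicate 3 or *atfs-1(null)* replicate 1, and 2 without *atfs-1(null)* replicate 2. *ins-7*, an agonist of the DAF-2 receptor made in neurons and intestine, had 1.002, 0.561 and 0.344 CPM in wild type and 3.09, 2.27 and 2.13 CPM in *atfs-1(null)* (log2 fold change 1.95, standard error 0.39, edgeR adjusted p = 0.00387). *ins-37* had 3.13, 3.44 and 1.41 CPM in wild type and 15.7, 15.6 and 6.83 CPM in *atfs-1(null)* (log2 fold change 2.25, standard error 0.44, edgeR adjusted p = 0.00359), with replicate 3 lowest in both groups as in the sperm genes. *ins-35* had 7.11, 7.67 and 8.85 CPM in wild type and 1.69, 2.13 and 1.33 CPM in *atfs-1(null)* (log2 fold change -2.19, standard error 0.24, edgeR adjusted p = 0.000378). *daf-28* and *ins-1* were not called. Most of these genes had few reads, and when only genes with a CPM of at least 1 in 3 libraries were tested, 2 were called higher.

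Among 19 genes for making, moving and breaking down transmitters, 7 were lower and 2 higher, or 5 higher without *atfs-1(null)* replicate 3. The share lower, 36.8%, was near the 35.4% over all genes, and the share higher was 10.5% against 32.9%. No test was made of a difference between transmitters. Of the genes of GABA neurons, *unc-25*, the synthesis enzyme, had 37, 36.2 and 43.2 CPM in wild type and 23.04, 20.4 and 21.6 CPM in *atfs-1(null)* (log2 fold change -0.84, standard error 0.13, edgeR adjusted p = 0.00119), and *unc-46*, *unc-47* and *snf-11*, of GABA loading and uptake, fell by 1.33, 1.09 and 1.15 on the log2 scale. *ace-2*, an acetylcholinesterase, fell by a like amount, with 41.5, 36.7 and 46.9 CPM in wild type and 22, 17.8 and 17.1 CPM in *atfs-1(null)* (log2 fold change -1.13, standard error 0.16, edgeR adjusted p = 0.000835). The acetylcholine transporter gene *unc-17* and the glutamate transporter gene *eat-4* were not called, with log2 fold changes of -0.503 and -0.502. Both enzymes of octopamine synthesis were higher. *tdc-1*, which makes tyramine, had 77.4, 56.3 and 60.4 CPM in wild type and 117, 132 and 225 CPM in *atfs-1(null)* (log2 fold change 1.29, standard error 0.26, edgeR adjusted p = 0.00414), and *tbh-1*, which converts tyramine to octopamine, had 5.01, 1.57 and 0.758 CPM in wild type and 15.8, 12.1 and 43.4 CPM in *atfs-1(null)* (log2 fold change 3.27, standard error 0.78, edgeR adjusted p = 0.00797). These genes are expressed in sheath cells of the gonad as well as in a few neurons, and which cells the difference came from was not tested. *atfs-1(null)* replicate 3 was the highest library for both, as it was within its group for 61% of all genes called higher.

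In each list of receptors, channels and cilia more genes were lower than higher. The share lower was 36.4% for peptide receptors and 35% for cilia, near the 35.4% over all genes. It was 53% for ligand-gated channels, 66.2% for potassium channels and 50% for chemoreceptors. Of 83 ligand-gated channel genes, 44 were lower and 3 higher. *unc-49*, the GABA receptor of body muscle, had 59.1, 53.3 and 57.6 CPM in wild type and 42.2, 38.9 and 27.5 CPM in *atfs-1(null)* (log2 fold change -0.65, standard error 0.17, edgeR adjusted p = 0.0122), and lost the call with scaling by library size alone. *glr-1*, an AMPA-type glutamate receptor, was not called. Of 68 potassium channel genes, 45 were lower and 3 higher. The number higher was 5 without *atfs-1(null)* replicate 3, and no such gene was called higher by edgeR without wild-type replicate 3 or *atfs-1(null)* replicate 1. *kcnl-1* had 37.4, 35.1 and 44.8 CPM in wild type and 7.31, 6.35 and 6.41 CPM in *atfs-1(null)* (log2 fold change -2.55, standard error 0.16, edgeR adjusted p = 0.000177). Of 77 peptide receptor genes, 28 were lower and 5 higher, with 3 higher without wild-type replicate 2 and 2 without wild-type replicate 3 or *atfs-1(null)* replicate 2. Chemoreceptor genes were mostly too low to test in whole worms: 68 of 1310 passed the filter, of which 34 were lower and 7 higher (12 higher without wild-type replicate 2 and 15 without *atfs-1(null)* replicate 3), and the number lower was 13 when a CPM of at least 1 in 3 libraries was required. Of 40 genes of cilia 14 were lower and 1 higher (2 without *atfs-1(null)* replicate 3), and the number lower fell to 9 without wild-type replicate 1, wild-type replicate 3 or *atfs-1(null)* replicate 2.

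Touch receptor neuron genes were lower. All 10 were called, with log2 fold changes from -1.42 to -0.87 and a median of -1.2. Of the 10, 5 lie on chromosome X, where 57.9% of all tested genes were lower, and 7 share exon bases with a neighbour. *mec-7*, a beta-tubulin of the large microtubules of these neurons, had 81.4, 66.3 and 101 CPM in wild type and 29.9, 24.1 and 39.2 CPM in *atfs-1(null)* (log2 fold change -1.42, standard error 0.22, edgeR adjusted p = 0.00144). *mec-12*, the alpha-tubulin partner, had 146, 127 and 180.0 CPM in wild type and 59.4, 46.9 and 70.8 CPM in *atfs-1(null)* (log2 fold change -1.35, standard error 0.19, edgeR adjusted p = 0.00091). Wild-type replicate 3 was the highest wild-type library for all 10, and *atfs-1(null)* replicate 3 the highest of its group for 8. Over all genes called lower these shares were 64.7% and 31.4%. All 10 were also called without replicate 3 of both groups, 9 with DESeq2, with no filter or with scaling by library size alone, and 8 without wild-type replicate 3, *atfs-1(null)* replicate 1 or *atfs-1(null)* replicate 2.

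Muscle genes were lower as well. Of 25 muscle filament genes 17 were lower and 1 higher (median -0.63). *unc-54*, the main myosin heavy chain of body muscle, had 5434, 5509.7 and 5401 CPM in wild type and 3765, 3807 and 2979.9 CPM in *atfs-1(null)* (log2 fold change -0.63, standard error 0.10, edgeR adjusted p = 0.0015). *myo-3*, the other heavy chain of body muscle, had 576, 645 and 616 CPM in wild type and 434, 461 and 330.3 CPM in *atfs-1(null)* (log2 fold change -0.59, standard error 0.13, edgeR adjusted p = 0.00695), and was not called with scaling by library size alone. *act-2*, an actin gene, was the one that rose (253, 309 and 212 CPM in wild type and 480.2, 532 and 689.6 CPM in *atfs-1(null)*, log2 fold change 1.14, standard error 0.18, edgeR adjusted p = 0.00158), and its sequence is close to that of the other actin genes. Of 8 pharynx markers 2 were lower, *ceh-22* and *marg-1*, with 1 lower without any one of wild-type replicates 1, 2 or 3. The pharyngeal myosin gene *myo-2* was not called, with 182, 239 and 152 CPM in wild type and 211, 229 and 73.7 CPM in *atfs-1(null)*, where *atfs-1(null)* replicate 3 was below the other 5 libraries.

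Over all genes, the largest rises included oocyte and yolk genes. Where genes had a class name, groups that did not overlap and an average log2 CPM of 4 or more, the 10 largest rises were those of *meg-1*, *pud-3*, *sip-1*, *pos-1*, *clec-87*, *puf-5*, *col-119*, *cpg-3*, *vit-5* and *col-143*. *meg-1*, a germ granule protein of the embryo's germline lineage, lies on chromosome X from 13927033 to 13929631 and had 3.19, 1.496 and 0.207 CPM in wild type and 39.3, 45.05 and 105 CPM in *atfs-1(null)* (log2 fold change 5.25, standard error 0.81, edgeR adjusted p = 0.0013). *sip-1*, a small heat shock protein of oocytes and embryos, had 30.1, 18.7 and 7.79 CPM in wild type and 455, 540.2 and 851 CPM in *atfs-1(null)* (log2 fold change 5.02, standard error 0.54, edgeR adjusted p = 0.000359). *pud-3* differed from these in its pattern, with 1.09, 1.01 and 0.723 CPM in wild type and 35.6, 35.4 and 26.4 CPM in *atfs-1(null)* (log2 fold change 5.099, standard error 0.24, edgeR adjusted p = 0.000177), in that *atfs-1(null)* replicate 3 was its lowest library of the group. It shares 135 of its 778 exon bases with *pud-4*. Among all 5134 genes called higher, *atfs-1(null)* replicate 3 was the highest library of its group for 61% and the lowest for 35.7%, while wild-type replicate 3 was the lowest of its group for 76.6%.

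After *atfs-1* itself, the largest falls were those of *rips-1*, *chca-1*, *bus-1*, *col-176*, *asp-8*, *dpy-6*, *fbn-1*, *folt-1* and *asp-12*. *rips-1* (chromosome V from 3772058 to 3775546) had 363, 129 and 175 CPM in wild type and 11.7, 4.46 and 4.94 CPM in *atfs-1(null)* (log2 fold change -4.99, standard error 0.56, edgeR adjusted p = 0.000424), and 640 of its 2341 exon bases overlap *cysl-3*. *chca-1* (chromosome IV from 9651426 to 9652484) had 107, 71.5 and 109.9 CPM in wild type and 4.34, 7.19 and 6.26 CPM in *atfs-1(null)* (log2 fold change -4.02, standard error 0.26, edgeR adjusted p = 0.000177). *bus-1*, needed for bacteria to adhere to the cuticle of the tail, had 51.8, 47.04 and 57.9 CPM in wild type and 3.24, 1.696 and 4.88 CPM in *atfs-1(null)* (log2 fold change -3.997, standard error 0.36, edgeR adjusted p = 0.000268). *folt-1*, a folate transporter, had 35.8, 26.6 and 37.7 CPM in wild type and 3.45, 2.39 and 3.63 CPM in *atfs-1(null)* (log2 fold change -3.401, standard error 0.24, edgeR adjusted p = 0.00018). In all of these every *atfs-1(null)* library was far below every wild-type library.

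Several of the largest falls were rises in *atfs-1(et18)* against its own wild type. A single edgeR fit of all 12 libraries tested how the strains differed, and in it 3705 genes (22.9% of 16188 tested) had a higher fold change in *atfs-1(null)* and 4220 (26.1%) a lower one. Strain and experiment cannot be told apart in this test, because each strain was grown in its own experiment. In *atfs-1(et18)*, 9.42% of 15639 tested genes were called higher and 7.51% lower. *rips-1* had a log2 fold change of -4.99 in *atfs-1(null)* but 2.21 in *atfs-1(et18)* (edgeR adjusted p of the difference = 1.36e-05). *chca-1* had -4.02 and 2.41 (adjusted p of the difference = 3.89e-07, edgeR). *cyp-33C8* had -3.42 and 4.26 (adjusted p of the difference = 2.02e-06, edgeR). The same held for *asp-8* (-3.51 and 2.45), *folt-1* (-3.401 and 2.07), *ugt-19* (-3.05 and 3.59), *ugt-62* (-2.56 and 2.75) and *cth-1* (-1.78 and 1.38), each with an edgeR adjusted p of the difference under 0.05. In the opposite sense, *pud-3* had 5.099 and -5.48 (edgeR adjusted p of the difference = 2.93e-07), and *lys-7* had 2.25 and -2.43 (edgeR adjusted p of the difference = 0.000176). Over all genes, calls went in the opposite and in the same direction in the strains. Among the rises of *atfs-1(et18)*, 494 genes (33.5%) fell in the null strain and 400 (27.2%) rose. Among the falls of *atfs-1(et18)*, 159 (13.5%) rose in the null strain and 477 (40.6%) fell. Among all genes tested in *atfs-1(null)*, 32.9% were higher and 35.4% lower, and the 33.5% with opposite calls is near that background. As shares of the *atfs-1(null)* calls, these were 8.93% and 8.63% of the lower genes for the 494 and the 477, and 7.79% and 3.1% of the higher genes for the 400 and the 159.

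The gene lists differed between the strains in different ways. The oocyte list had a median of 1.19 in *atfs-1(et18)*, against 3.97 in *atfs-1(null)*, and for 20 of its 22 genes the difference was called. For the major sperm proteins the difference was called for 28 of 28 (medians 3.1 and 0.47). The vitellogenins had medians of 3.85 and 1.19, and the difference did not pass the threshold for any of them, although the adjusted p of *vit-5* and *vit-3* in edgeR was 0.0608 and 0.0643. *vit-2* had 4.17 in *atfs-1(null)* against 1.65 in *atfs-1(et18)* (edgeR adjusted p of the difference = 0.0917). Nuclear hormone receptors were lower in *atfs-1(null)* and more often higher than lower in *atfs-1(et18)* (26 higher and 4 lower of 190), and 125 of 194 had a lower fold change in *atfs-1(null)*. Glycolysis showed the same contrast, with 9 of 19 higher in *atfs-1(et18)*, and the fold change in *atfs-1(null)* was called below that in *atfs-1(et18)* for 15 of 19 and above it for 3. Muscle filament genes were lower in both strains, 17 of 25 in each, and 7 of 25 differences were called. *unc-54* had -0.63 in *atfs-1(null)* against -0.598 in *atfs-1(et18)* (edgeR adjusted p of the difference = 0.98). Of the pharynx markers 6 of 8 were lower in *atfs-1(et18)* (median -1.43), and 3 of 8 differences were called, all with the higher value in *atfs-1(null)*. The intestine markers had 10 of 12 lower in *atfs-1(null)* but 2 of 12 lower in *atfs-1(et18)*, and the difference was called for all 12, with 11 below and 1 above.

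**Figure D5:**
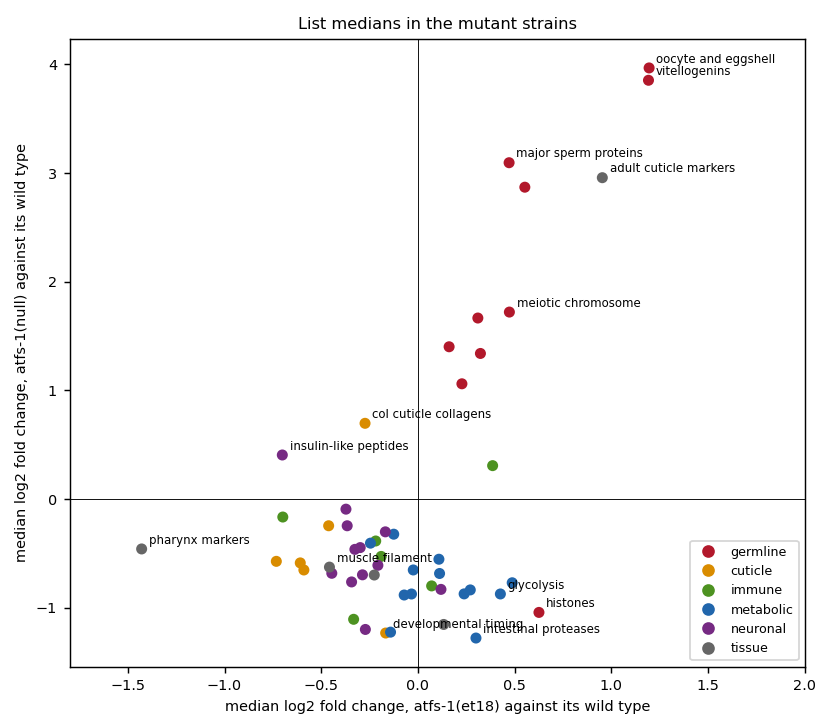
Median log2 fold change of each list in *atfs-1(null)* (vertical axis) against that in *atfs-1(et18)* (horizontal axis), each strain against its own 3 wild-type libraries, coloured by the kind of list. Oocyte and yolk lists have medians of 3.97 and 3.85 in *atfs-1(null)* against 1.19 for both in *atfs-1(et18)*, and pharynx markers are lowest in *atfs-1(et18)* (-1.43).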

How the data were processed

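RNA of whole L4 worms was sequenced by the authors as single 50-base reads, and their processing notes name STAR 2.5.3a, WBcel235, featureCounts (Subread 1.5.2) and edgeR 3.10.0. How strand and multiply matching reads were handled is not given in the sources used here. The authors deposited raw counts of reads per gene for 46739 genes, with no normalization, and the length of each gene's exons. No column of another series was found in the table.

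From these counts, 6 libraries in 2 groups of 3 were fitted with edgeR 4.0.16 in R 4.3.3 (TMM normalization, quasi-likelihood test, default filter on low counts with minima of 10 per library and 15 in total, Benjamini-Hochberg adjustment at 0.05). CPM were computed after TMM scaling. The standard error is the log2 fold change divided by the square root of F. The biological coefficient of variation was 0.234. Replicate pairs all differed by more than sampling noise, so none was merged. The difference between strains was fitted on 12 libraries, including the wild type and *atfs-1(et18)* of the other experiment. Symbols came from a names table (43720 of 46739 genes), and positions from the deposited table. Exon overlap was read from the same positions: 45 of the 226 named genes share exon bases with a neighbour, and for 8 that is above 10% of the bases.

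The 54 gene lists and the tests were chosen with earlier results of these data known, and list counts are descriptions. The genes named are fixed markers, the 2 largest rises and falls in each list that were called, had an average log2 CPM of 2 or more and did not overlap between groups, and, over all genes with a class name, the 10 largest rises and falls by the same criteria at an average log2 CPM of 4 or more. Further list members named without CPM were chosen after their values were seen. The lists not named in the report are in its plot of list medians. The fit was tested on simulated counts.

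The alternatives were DESeq2 1.42.0, scaling by library size alone, TMM without the sperm, collagen and vitellogenin lists, no filter, a CPM of at least 1 in 3 libraries, robust estimation, all 12 libraries in one fit, the replicate number as a block, leaving out each library, and leaving out replicate 3 of both groups. Sequences were not used here. Figures were drawn with matplotlib 3.10.9.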

Additional observations from a re-analysis of the deposited data

How the results depend on the processing

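Of 58 counts (totals and, for each list, the direction with more calls), 50 stayed within 1.5 times their value in every alternative. The direction with fewer calls was less stable. It moved by over 1.5 times in at least 1 alternative for 28 of 54 lists, 25 of them with 5 or fewer calls, and for 23 of them when 1 library was left out, with the values beside each count in the report. The median fold moved by over 1.5 times for 6 lists. Scaling by library size alone gave 8 epidermal antimicrobial peptide genes lower, 22 ribosomal protein genes, 8 cilia genes, 1 pharynx marker and 6 pan-neuronal markers, for which its construction moves every fold change up by about the same amount. DESeq2 gave 43 ribosomal protein genes and 8 cilia genes lower and 2 early zygotic markers higher. With no filter there were 44 ribosomal protein genes, 63 chemoreceptors, 8 cilia genes, 1 pharynx marker and 6 pan-neuronal markers lower and 5 early zygotic markers higher, where the cause was not tested for genes present in both. With a CPM of at least 1 in 3 libraries, which leaves fewer genes to test, there were 13 chemoreceptors and 9 cilia genes lower, 2 insulin-like peptide genes higher and 0 early zygotic markers. When single libraries were left out, the number lower ranged from 9 to 16 for cilia, 8 to 19 for epidermal antimicrobial peptides and 1 to 3 for pharynx markers, and the early zygotic markers higher from 1 to 3. Over all genes these fits called 4248 to 5729 higher and 4529 to 5921 lower.

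The replicate numbers of the labels were tried as a block. Same-numbered libraries deviated from their group means with correlations of -0.02, 0.52 and 0.32 across genes, and 4 of 6 libraries correlated best with their own number. These values do not settle whether same-numbered libraries were paired, and the main fit took them as unpaired. The block gave 5382 genes higher and 5621 lower, 4 of 8 pharynx markers lower, and 8980 differences between the strains in place of 7925. Scaling by library size alone gave 8706.

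Of 206 called named genes, 182 kept their call in every alternative and 24 lost it in at least 1. Of 20 that were not called, 4 gained a call in at least 1. Signs changed for 10 genes, none of which was called, and the cause was not tested. With scaling by library size alone the log2 fold change was 0.21 for *fat-5*, 0.13 for *lys-1*, 0.10 for *myo-2*, 0.0423 for *nlp-9*, 0.14 for *rol-6*, 0.12 for *snb-1* and 0.22 for *zip-2*. DESeq2 gave 0.0508 for *fat-5* and 0.0614 for *zip-2*, no filter 0.0699 and 0.0775, and all 12 libraries in one fit 0.00055 for *zip-2*. Without replicate 3 of both groups it was 0.11 for *fat-5*, 0.0550 for *myo-2*, 0.0232 for *osm-6*, 0.0476 for *rol-6*, -0.13 for *tra-2* and 0.12 for *zip-2*. When single libraries were left out it ranged from -0.0677 to 0.298 for *acdh-2*, -0.102 to 0.0876 for *fat-5*, -0.414 to 0.19 for *myo-2*, -0.313 to 0.13 for *rol-6*, -0.0851 to 0.241 for *tra-2* and -0.120 to 0.0700 for *zip-2*. In the chemoreceptor, male and early embryo lists most members had too few counts to test. Whether that reflects depth or absent expression was not tested.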
